A study of Rattus norvegicus with 12 samples.

Results

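The miRNAs described here are the muscle-type miR-1, miR-133 and miR-206, with miR-208 and miR-499 as cardiac controls, in the hippocampus of rats given ethanol or vehicle. They were taken by name, as every deposited row with the stem miR-1 (miR-1 and miR-1b only), miR-133a, miR-133b, miR-206, miR-208 or miR-499, both arms included, which gave 15 of 753 mature miRNAs. Of the 15 rows, 9 belong to miR-1, miR-133 and miR-206 and 6 to miR-208 and miR-499. The main members are listed as rno-miR-133a-3p, rno-miR-133b-3p, rno-miR-1b and rno-miR-206-3p, where rno stands for rat. They were selected on their measured CPM and its difference between groups, since the first 3 had been seen to stand high in the same few libraries and low after ethanol, so their levels and their differences between groups are given as a description, without a p-value.

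Male Sprague Dawley rats, aged P70 to P80, received ethanol (EtOH, 4 g/kg, 8 rats) or vehicle (Veh, 4 rats) and right hippocampus was taken 3 h after the injection. Vehicle rats other than these 4 were not analysed here. No transgene or deletion was involved, each library came from 1 animal, and a rat is called by its group and its number. Small RNA from whole tissue was sequenced, so a level averages over all the cells in the dissected piece.

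These miRNAs are the classical miRNAs of striated muscle, the contractile tissue of heart and skeletal muscle, where they are among the most abundant. Their precursors lie in pairs, miR-1 with miR-133a and miR-206 with miR-133b, and each pair can be cut from a shared primary transcript. In muscle cells miR-1 and miR-206 promote differentiation, with the deacetylase Hdac4 as a known target, while miR-133 represses the transcription factor Srf. Expression of miR-206 is typical of skeletal muscle and is very low in heart. miR-208a, miR-208b and miR-499 lie inside the myosin heavy chain genes Myh6, Myh7 and Myh7b. In brain, miR-133b has been studied in dopaminergic neurons of the midbrain.

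A miRNA recognises its targets mainly through its seed, bases 2 to 8 from the 5′ end, and members with the same seed share predicted targets. RefSeq (rat assembly GRCr8) gave mature sequences for 14 of the 15 rows, and those that the results turn on are printed 5′ to 3′ with the seed in capitals. The miR-133 guide strands come first, because their near identity bears on how reads were counted:
miR-133a-3p: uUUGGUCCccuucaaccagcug
miR-133b-3p: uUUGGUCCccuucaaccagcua
The miR-1 and miR-206 strands share another seed:
miR-1b: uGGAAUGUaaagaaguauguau
miR-1-3p: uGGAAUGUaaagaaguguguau
miR-206-3p: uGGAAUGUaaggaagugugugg
The cardiac controls that follow have seeds unlike either group, and miR-133a-5p, the passenger strand of the miR-133a precursor, is shown because it was read in some libraries:
miR-499-5p: uUAAGACUugcagugauguuu
miR-208a-3p: aUAAGACGagcaaaaagc
miR-208a-5p: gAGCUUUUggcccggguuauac
miR-133a-5p: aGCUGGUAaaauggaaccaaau

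Positions are counted from 1 at the 5′ end. The guide strands of miR-133a and miR-133b differ by the single substitution G22A (miR-133a-3p first), which is the last base of the molecule. miR-1b differs from miR-1-3p by A17G alone (miR-1b first), and from miR-206-3p by A11G, A17G, A21G and U22G. miR-1-3p and miR-206-3p differ at 3 positions, A11G, A21G and U22G (miR-1-3p first). In RefSeq's rat gene table, the precursors Mir1 and Mir133a1 both lie within the span of Mib1, and Mir206 and Mir133b within the span of the same lncRNA gene, LOC120094648. Mir1b lies within no other gene of that table. Mir208a, Mir208b and Mir499a lie within Myh6, Myh7 and Myh7b.

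Total counts ranged from 1960702 to 4917929 per library, so that 3 counts, taken as the smallest detectable amount, corresponded to between 0.631 and 1.57 CPM. CPM is counts relative to the library total, scaled with edgeR's TMM factors (per 1000000 counts), and these limits cover counting error only. The tissue label was checked as brain only, not as hippocampus or its side. For this, 6 miRNAs of neurons (such as miR-124-3p and miR-9a-5p) were summed. The sums were between 34784 and 40065 CPM in vehicle rats and between 31525 and 39530 CPM in ethanol rats. Libraries were sequenced in sets, but the labels do not say which was in which set, so no values within a batch can be given.

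The guide strands of the muscle-type miRNAs were read in every library, at levels that differed widely between rats. Estimated counts of miR-133a-3p were 1371, 102, 3348 and 2871 in vehicle rats 9, 10, 19 and 20, and ranged from 88.6 to 1315 in the 8 ethanol rats. In CPM, miR-133a-3p was 453 in vehicle rat 9, 43.4 in vehicle rat 10, 704 in vehicle rat 19 and 611 in vehicle rat 20. The 8 ethanol rats had a lowest value of 35.5 CPM, a median of 66.7 and a highest of 462, the last in ethanol rat 16. Vehicle rats 9, 19 and 20 and ethanol rat 16 were thus high, vehicle rat 10 lay among the low ethanol rats, and the groups overlapped.

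For miR-133b-3p, the levels in vehicle rats 9, 10, 19 and 20 were 691, 56.6, 605 and 664 CPM. In ethanol rats its lowest, median and highest values were 46.7, 87.1 and 732 CPM. The highest value of all 12 libraries came from an ethanol animal, rat 16. For miR-1b, the representative of miR-1 in these data, the levels in vehicle rats 9, 10, 19 and 20 were 539, 24.3, 315 and 487 CPM. Ethanol rats had a lowest value of 26.1 CPM for miR-1b, a median of 41.3 and a highest of 517, again in rat 16. The lowest miR-1b level of all libraries belonged to vehicle rat 10.

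**Figure D1:**
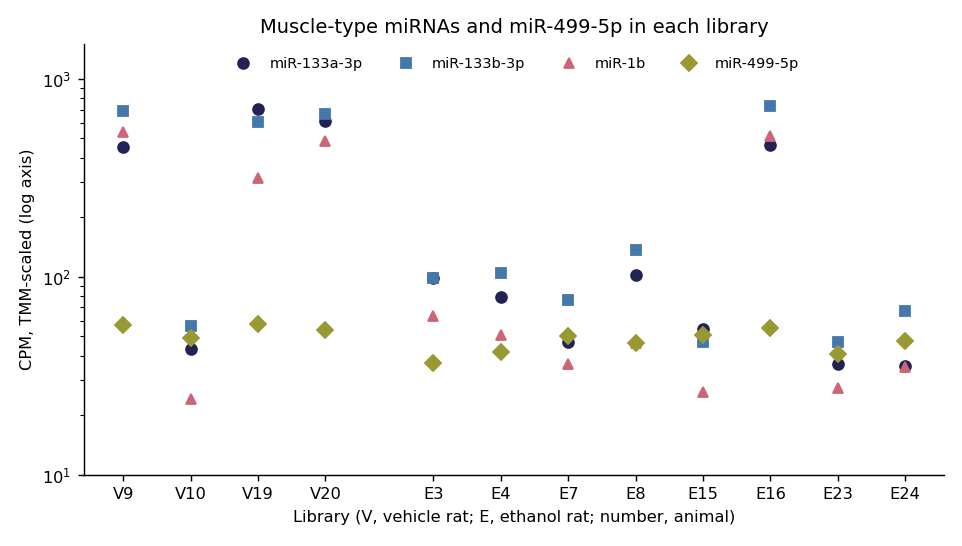
Level of miR-133a-3p, miR-133b-3p, miR-1b and miR-499-5p (CPM after TMM scaling, log axis) in each of the 4 vehicle (V) and 8 ethanol (E) libraries, 1 point per library (at E3 and E8, points of near-equal level cover each other). The muscle-type miRNAs lie between 315 and 732 CPM in V9, V19, V20 and E16 and between 24.3 and 137 CPM in the other libraries, whereas miR-499-5p lies between 36.6 and 57.6 CPM throughout.

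The same 4 libraries held the highest levels of all 3 miRNAs, and a wide gap followed them. Between the fourth and the fifth library the level fell from 453 to 102 CPM for miR-133a-3p (4.42-fold), from 605 to 137 CPM for miR-133b-3p (4.42-fold) and from 315 to 63.5 CPM for miR-1b (4.97-fold). Within the 4 highest libraries the levels spanned a factor of 1.56, 1.21 and 1.71 for these miRNAs in turn, and within the 8 lowest a factor of 2.88, 2.93 and 2.62. The order followed depth only in part, and a part of depth in the levels was not tested. Among vehicle rats, miR-133a-3p fell in the order of depth, but miR-133b-3p and miR-1b did not. The low vehicle rat 10 was the shallowest vehicle library, at 2243412 counts. Vehicle rats 19 and 20 were the deepest libraries, at 4917929 and 4465873 counts, but ethanol rats 15, 24 and 23 (3598773, 3362623 and 3131594 counts) were deeper than vehicle rat 9 and ethanol rat 16 (3018635 and 2898038 counts) and were low.

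Together miR-1b and the 2 miR-133 strands were a small part of each library. Their share of the counts was 0.169%, 0.157% and 0.185% in vehicle rats 9, 19 and 20, and ethanol rat 16 had 0.168%. In vehicle rat 10 and the remaining ethanol rats the share was between 0.0108% and 0.0271%. Samples of whole tissue cannot tell fewer cells of a type from less RNA per cell.

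Of the 15 rows, 4 (miR-133a-3p, miR-133b-3p, miR-499-5p and miR-1b) were read often enough to be retained, 5 had reads but too few, and 6 had none. Few miRNAs varied as much between rats. The standard deviation of log2 CPM over the 12 libraries was 1.83 for miR-1b, 1.68 for miR-133a-3p and 1.63 for miR-133b-3p, which ranked 1, 2 and 4 of the 420 miRNAs retained after removal of rarely read ones. The median over the 420 was 0.236. By mean level the same miRNAs ranked 189, 172 and 162, in the middle of the list. The third place went to miR-10b-5p (1.63), a miRNA of the Hox gene clusters.

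The cardiac control miR-499-5p was as steady as most miRNAs. It was 57.1, 49.4, 57.6 and 53.8 CPM in vehicle rats 9, 10, 19 and 20, and in ethanol rats the lowest, median and highest levels were 36.6, 46.8 and 55.1 CPM. From the lowest to the highest library this is a factor of 1.57, compared with 22.2 for miR-1b, 19.8 for miR-133a-3p and 15.7 for miR-133b-3p. Its standard deviation of 0.20 on the log2 scale ranked 252 of 420. The 4 libraries with the most miR-499-5p were also vehicle rats 9, 19 and 20 and ethanol rat 16, but the step from the fourth to the fifth library was a factor of 1.06.

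In order of mean level in vehicle rats, miR-133b-3p (504 ± 301 CPM, SD, n = 4) came before miR-133a-3p (453 ± 292) and miR-1b (341 ± 232), and miR-499-5p was lowest (54.5 ± 3.80). In ethanol rats the order was the same, at 163 ± 232 CPM for miR-133b-3p (SD, n = 8), 114 ± 143 for miR-133a-3p, 100.3 ± 169 for miR-1b and 46.1 ± 6.12 for miR-499-5p. These miRNAs are 21 or 22 nt long, so they hardly differ in length. How efficiently each sequence is read was not measured, and the order of the miR-133 strands depends on how reads were divided between them. The order is therefore one of reads. In both groups, no neighbours among miR-1b and the miR-133 strands were further apart than the spread between rats. Pooled over the 8 low libraries, miR-499-5p (36.6 to 50.8 CPM) lay within the range of miR-1b and the miR-133 strands (24.3 to 137 CPM). Within ethanol rats 3, 4 and 8 taken singly, miR-499-5p was below each of them.

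The counts of near-identical members cannot be taken as independent. The deposited values of miR-133a-3p and miR-133b-3p were fractional in nearly all libraries, but their sum was within 0.1 of a whole number in 12 of 12, as arises when reads that fit both are divided between them. In ethanol rat 3 each was given exactly 211.5 of 423 reads. The share of miR-133b-3p in this sum was between 46.1% and 65.4% over the 12 libraries, with a median of 56.8%. In vehicle rats the mean share was 53.8% ± 6.12 (SD, n = 4), and in ethanol rats 56.9% ± 6.38 (SD, n = 8). The highest share was in ethanol rat 24 at 65.4% and the lowest in ethanol rat 15 at 46.1%, with exact 95% binomial intervals of 60.1% to 70.3% and 40.9% to 51.3%. Those intervals take the divided counts as given and do not cover error in the division of reads. No difference between rats is therefore read from them. Vehicle rat 10 (56.6%) and ethanol rat 16 (61.3%) lay inside the range of the others.

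Reads of miR-1b did not follow those of miR-133 exactly, but the ratio moved much less than the levels. There were between 0.195 and 0.471 reads of miR-1b per read of miR-133 (miR-133a-3p plus miR-133b-3p) over the 12 libraries. Vehicle rats had a mean ratio of 0.334 ± 0.113 (SD, n = 4). Ethanol rats had one of 0.307 ± 0.0700 (SD, n = 8). Its 3 highest values were in vehicle rat 9 (0.471), ethanol rat 16 (0.433) and vehicle rat 20 (0.382), all high in muscle-type miRNAs. Vehicle rat 19, which held the most miR-133a-3p, had a ratio of 0.241, close to the 0.243 of vehicle rat 10.

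**Figure D2:**
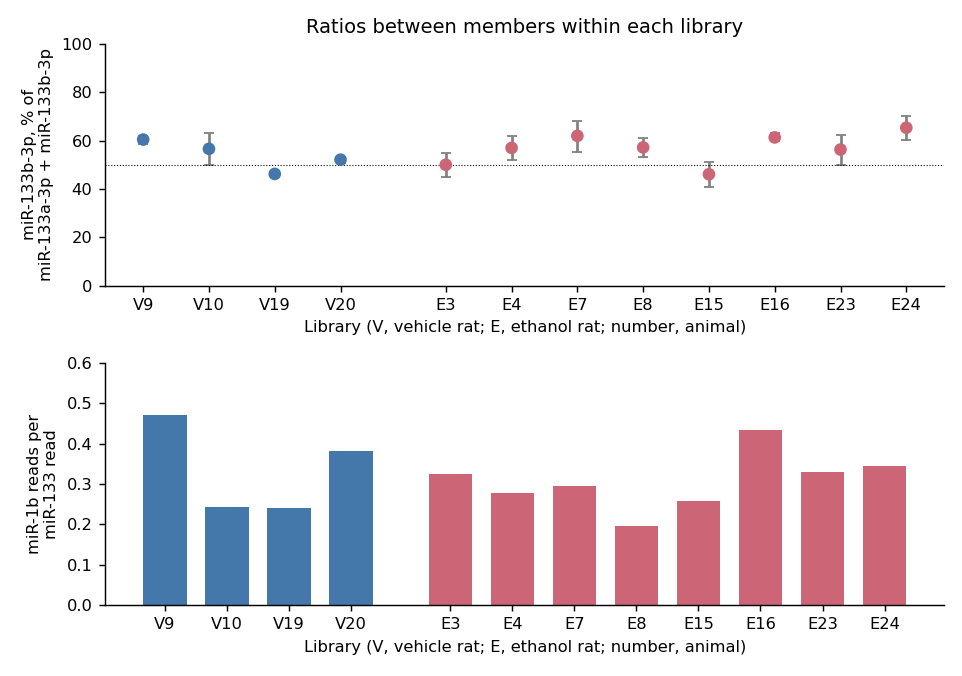
Upper panel, miR-133b-3p as a percentage of miR-133a-3p plus miR-133b-3p in each library, with exact 95% binomial intervals; lower panel, reads of miR-1b per read of miR-133. Blue marks vehicle rats and red ethanol rats. In libraries of high and of low level alike, the share (from rounded counts) stays between 46.1% and 65.3% and the ratio between 0.195 and 0.471. The intervals take the divided counts as given.

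Nearly all reads with the miR-1 seed were given to miR-1b. miR-1b had between 57 and 2288 estimated counts per library, and miR-1-3p and miR-206-3p together had between 3 and 22. The share of miR-1b among the 3 was between 86.2% and 99.7%. In vehicle rats 9, 19 and 20 and ethanol rat 16 it was at least 99.3%.

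Expression of miR-206-3p, the skeletal muscle member, was near the limit of detection. Its estimated counts were 4, 4.5, 8.01 and 10.0 in vehicle rats 9, 10, 19 and 20 and ranged from 0.0125 to 11.9 in ethanol rats. The highest value was in ethanol rat 8, and ethanol rat 16, with 1473 counts of miR-1b, had 2. Again the division of reads matters. The sum of miR-1-3p and miR-206-3p was within 0.1 of a whole number in 12 of 12 libraries, and in 6 of them the reads were split evenly between both. The sum was 8, 9, 8.01 and 15 in vehicle rats 9, 10, 19 and 20 and from 3 to 22 in ethanol rats, with the most in rat 3. Neither miRNA was high in the libraries that were high in miR-1b and miR-133, where miR-206-3p had 4, 8.01, 10.0 and 2 estimated counts (vehicle rats 9, 19 and 20 and ethanol rat 16).

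The passenger strands were rare. miR-133a-5p had 6, 0, 4 and 9 reads in vehicle rats 9, 10, 19 and 20. It had 7 reads in ethanol rat 16. In the other ethanol rats it had 0 to 2 reads. Its 31 reads in all thus lay mostly where miR-133a-3p was highest. As a share of both arms it was 0.436% in vehicle rat 9, 0.119% in vehicle rat 19, 0.312% in vehicle rat 20 and 0.530% in ethanol rat 16, with exact 95% binomial intervals of 0.160% to 0.946%, 0.0325% to 0.305%, 0.143% to 0.592% and 0.213% to 1.09%. In vehicle rat 10 it was 0 of 102 reads, with an exact 95% interval that reaches 3.55%, so an absence of the strand there was not shown at this depth. In ethanol rats 3, 7 and 15 it was also 0, of 212, 89 and 199 reads, with intervals that reach 1.72%, 4.06% and 1.84%.

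Other arms of the skeletal and cardiac muscle miRNAs had no reads at all. miR-1-5p, miR-133b-5p, miR-206-5p, miR-208a-3p, miR-208b-3p and miR-208b-5p were at 0 in all 12 libraries, which allows up to 0.631 to 1.57 CPM. RefSeq lists miR-208a-3p and miR-208b-3p at 18 nt, under the 20 to 30 nt for which the libraries were gel purified. miR-208a-5p, the other arm of the heart miRNA in Myh6, had 7 reads in all. Vehicle rats 9 and 19 and ethanol rat 16 had 1 each, vehicle rat 20 had 4, and the other 8 libraries had 0. At 1 to 4 reads each value is at or near the limit of detection. miR-499-3p had at most 3 reads, against 79 to 274 estimated counts of miR-499-5p.

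**Figure D3:**
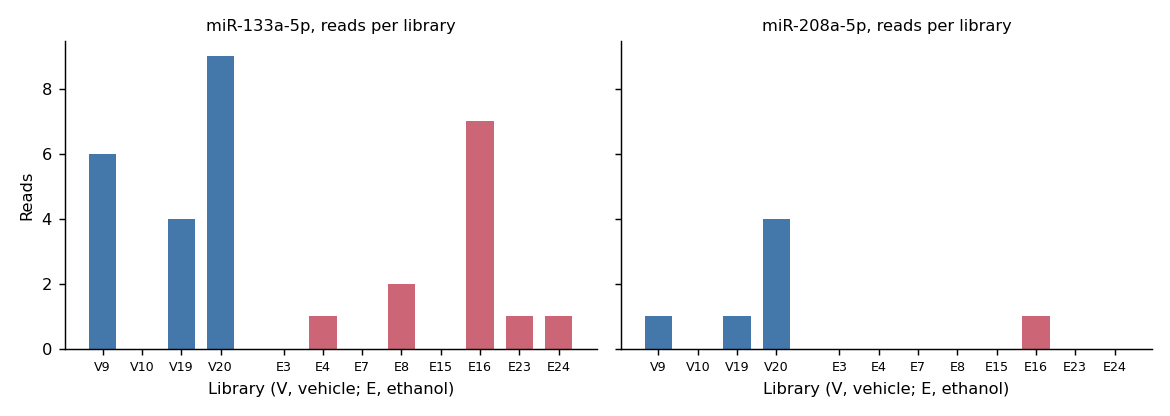
Reads of miR-133a-5p (left) and miR-208a-5p (right) in each library, vehicle (V) rats in blue and ethanol (E) rats in red. miR-133a-5p reached 4 to 9 reads in V9, V19, V20 and E16 and at most 2 elsewhere, and the 7 reads of miR-208a-5p fell in the same 4 libraries.

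The likeness of other miRNAs to miR-133a-3p was measured as the root mean square distance between profiles of log2 CPM over the 12 libraries, each centred on its own mean. Among 419 miRNAs, miR-133b-3p was nearest, at 0.34, and miR-1b next, at 0.46. Both were selected for standing high in the same few libraries as miR-133a-3p, and the miR-133 strands divide reads. Their ranks here and below are therefore a description only. A miRNA that did not vary at all would lie at 1.61. Outside the muscle names, the nearest were miR-34b-3p (1.29), miR-7a-2-3p (1.33), miR-448-5p (1.33), miR-34c-3p (1.35) and miR-451-5p (1.35). miR-34b, miR-34c and miR-448 mark ciliated cells and choroid plexus and miR-451 marks red blood cells. The distances of these 5 were all closer to 1.61 than to that of miR-1b, and miR-499-5p ranked 41 at 1.49. Without vehicle rat 10 and ethanol rat 16, miR-133b-3p and miR-1b still ranked 1 and 2, and 4 of the 5 others were kept. By rank order (Spearman), miR-133b-3p ranked 1 and miR-1b 3, and 0 of the 5 others were the same.

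**Figure D4:**
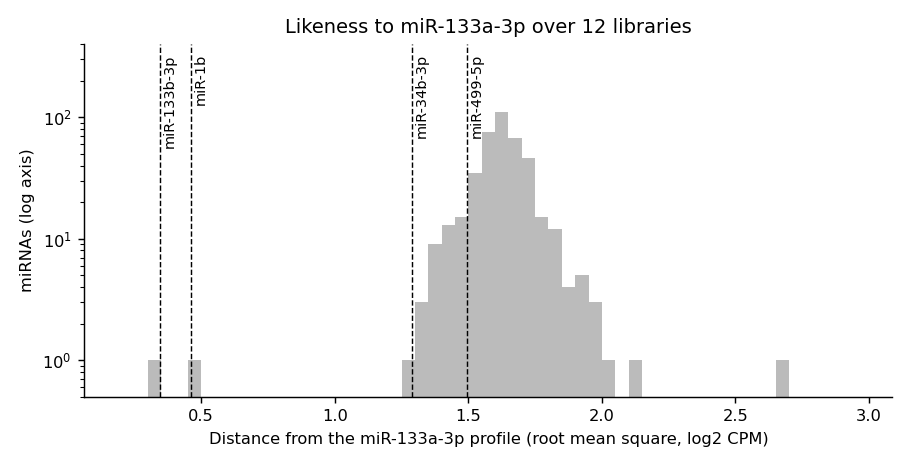
Root mean square distance of each of 419 miRNAs from the profile of miR-133a-3p over 12 libraries (log2 CPM), as a histogram with a log count axis. miR-133b-3p (0.34) and miR-1b (0.46) stand apart from the rest, which begin at 1.29 with miR-34b-3p. Both were selected for standing high in the same libraries as miR-133a-3p.

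Markers of other cell types were read beside these levels, and their part in the levels of the muscle-type miRNAs was not tested. In vehicle rats 9, 19 and 20 and ethanol rat 16, 3 miRNAs of smooth muscle and vessels (miR-143-3p, miR-145-5p and miR-126a-3p) summed to between 36705 and 46039 CPM, inside the 30812 to 65565 CPM of all ethanol rats. The 4 listed blood miRNAs summed to between 167 and 259 CPM in those 4 libraries. Their sums were 139 to 238 CPM over the vehicle rats and 64.0 to 317 CPM over the ethanol rats. For 5 miRNAs of choroid plexus the sums were 37402 to 58248 CPM in those libraries, 28979 to 50272 in vehicle rats and 16517 to 70891 in ethanol rats. For 5 miRNAs of ciliated cells they were 7506 to 9679 CPM, 4358 to 8924 and 1956 to 12119. The vehicle and ethanol ranges include those 4 libraries. For blood, choroid plexus and ciliated cells, the lowest vehicle sum lay below those 4 libraries and so belonged to vehicle rat 10. For smooth muscle and vessels it did not, since the lowest vehicle sum was 36705 CPM. For each of these markers, the lowest and highest ethanol sums lay outside the range of those 4 libraries, in ethanol rats other than rat 16. The liver miRNA miR-122-5p was at most 2.46 CPM in any library. Of the 3 miRNAs listed here for heart muscle, miR-208a-3p and miR-208b-3p were at 0 throughout, at a listed length under the gel-purified range. The third, miR-499-5p, was 53.8 to 57.6 CPM in vehicle rats 9, 19 and 20 and ethanol rat 16, its 4 highest libraries, and 36.6 to 50.8 CPM in the other 8. The 7 reads of miR-208a-5p lay in the same 4 libraries.

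The comparison of ethanol with vehicle asks whether a first high dose alters the hippocampal miRNA profile within 3 h. All 4 members that were read often enough to be retained were lower on average after ethanol, beside 227 of all 420 miRNAs. The 4 are not independent, since miR-133a-3p and miR-133b-3p divide reads. From edgeR's quasi-likelihood fit over 420 miRNAs, the log2 fold change (ethanol minus vehicle) of miR-133a-3p was -1.99 with a standard error of 0.72. For miR-133b-3p it was -1.63 with a standard error of 0.76, for miR-1b -1.76 with 0.86, and for miR-499-5p -0.24 with 0.11. The median log2 fold change of the 4 was -1.70, beside -0.02 over all 420 miRNAs, and the median standard errors were 0.74 and 0.14.

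Individual rats did not divide by treatment. For each of miR-1b, miR-133a-3p and miR-133b-3p, 7 of 8 ethanol rats lay below vehicle rats 9, 19 and 20, and ethanol rat 16 lay within or above their range. Against all 4 vehicle rats, the number of ethanol rats below the lowest was 2 of 8 for miR-133a-3p and miR-133b-3p and 0 of 8 for miR-1b, because vehicle rat 10 was itself low. For miR-499-5p, 5 of 8 ethanol rats lay below every vehicle rat.

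**Figure D5:**
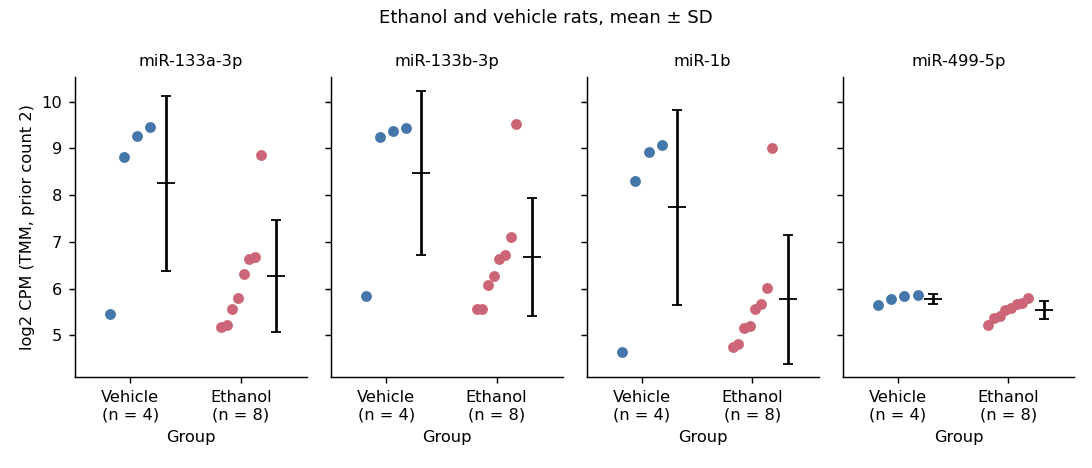
Log2 CPM of the 4 retained members in vehicle (n = 4) and ethanol (n = 8) rats, 1 point per rat, with the mean and SD of each group beside the points. For miR-1b and both miR-133 strands, 1 vehicle rat lies among the low ethanol rats and 1 ethanol rat among the high vehicle rats; for miR-499-5p the groups differ by 0.24 and overlap.

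By edgeR's quasi-likelihood test, 0 of the 4 members had a Benjamini-Hochberg adjusted p under 0.05, where the background was 0% (0 of 420). At an unadjusted p under 0.05 the count was 2 of 4, miR-133a-3p and miR-499-5p, both lower, where the background was 4.05% (17 of 420) in either direction and 2.38% in the lower direction. In the higher direction it was 0 of 4, where the background was 1.67%. The members were chosen with this contrast in view, and nothing is read from these counts or from those that follow.

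Both the size of the difference and these calls turned on single rats. Without ethanol rat 16 the log2 fold changes were -2.82 for miR-133a-3p, -2.62 for miR-133b-3p and -3.07 for miR-1b, and these 3 members were the 3 miRNAs that edgeR's quasi-likelihood test called at an adjusted p under 0.05, a background of 0.714%. The rat left out there is the ethanol rat that went against the difference for which the members were selected, so that call gives no support to it. Without vehicle rat 10 the log2 fold changes were -2.37, -2.0 and -2.15, with 0 miRNAs called. With all 12 rats, the Wald test of DESeq2 called 1 miRNA at that threshold, which was miR-133b-3p at a log2 fold change of -2.32 (background 0.238%). In that fit DESeq2 had replaced the miR-133b-3p count of ethanol rat 16, 2084, by 639, its default treatment of a distant count in a group of this size. It replaced no other count, and miR-133a-3p and miR-1b of the same rat were fitted as they were.

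Since reads were divided between near-identical members, reads were also summed by seed before the fit. The summed miR-133 family (miR-133a-3p and miR-133b-3p) had a log2 fold change of -1.77, and the summed miR-1 and miR-206 family (miR-1-3p, miR-1b and miR-206-3p) one of -1.71. Without ethanol rat 16 these were -2.68 and -2.92.

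Of 17 other miRNAs described in muscle but expressed in many tissues, 15 were listed under these names and retained. These were the arms of miR-378a, miR-143, miR-145 and miR-22, and miR-23a-3p, miR-24-3p, miR-27a-3p, miR-29a-3p, miR-30a-5p, miR-181a-5p and miR-26a-5p. Of the 15, 7 were lower after ethanol, beside 227 of all 420 miRNAs. The log2 fold changes of the 15 lay between -0.26 and 0.42, with a median of 0.003 that was close to that of all miRNAs. With edgeR's quasi-likelihood test 0 of them had an adjusted p under 0.05, and miR-22-3p alone (log2 fold change -0.26, standard error 0.09) had an unadjusted p under 0.05. Their standard deviations over the 12 libraries lay between 0.0571 and 0.656 on the log2 scale, below those of miR-1b and both miR-133 strands.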

How the data were processed

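For each rat the authors deposited 1 list of 753 mature miRNAs with their expected counts, which are estimated counts, not scaled to library size. Small RNA was gel purified and sequenced for 37 cycles on a MiSeq. The submitters' processing notes name cutadapt, Partek and the build rn5, and the counting method and the miRNA annotation are not given in the sources used here.

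Estimated counts were rounded for fits, CPM, binomial intervals, the share of miR-133a-5p and the plotted share of miR-133b-3p. Other ratios between members used the deposited values. Rarely read miRNAs, under 10 reads in at least 10 of the libraries, were removed, and 420 remained. Groups came from sample titles, each with its own animal number. Ethanol was compared with vehicle in R 4.3.3 by edgeR 4.0.16 (TMM, quasi-likelihood test, no covariates, Benjamini-Hochberg adjustment over 420 miRNAs), checked on simulated counts. The standard error is the log2 fold change divided by the square root of F. Log2 CPM used a prior count of 2. DESeq2 1.42.0 and limma 3.58.1 were alternatives, with other scalings and filters and each rat left out. Binomial intervals are exact (Clopper-Pearson, scipy 1.17.1) and, since reads carry no molecular identifiers, cover counting error only. For the share of miR-133b-3p they also take the divided counts as given. Sequences and gene names came from RefSeq for GRCr8, not rn5, so no coordinates are given. The members, lists and tests were chosen with earlier results of these data known. The named miRNAs were the rows with the chosen stems, the 5 others nearest to miR-133a-3p and the list of other muscle-associated miRNAs. Both miR-10b-5p and miR-3546 were named after their values were seen.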

Additional observations from a re-analysis of the deposited data

Results flagged for a closer look

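In 14 groups of values (7 measures in each of 2 treatments), a rat whose gap to its neighbour was large relative to the range of its group was found in 5. Chance gives this in about 1 in 20 groups, but all 5 concern miRNAs that were selected for standing high in the same few libraries, and the measures share those libraries, so the values are a description and the number found is not set against chance. Vehicle rat 10 was the lowest vehicle rat for miR-133a-3p, at 5.46 log2 CPM against 8.82 to 9.46 in the others (gap 0.841 of the range), and for miR-133b-3p, at 5.84 against 9.24 to 9.43 (gap 0.946). Ethanol rat 16 was the highest ethanol rat for miR-133a-3p, at 8.85 against 5.18 to 6.69 (gap 0.589), for miR-133b-3p, at 9.52 against 5.56 to 7.10 (gap 0.611), and for miR-1b, at 9.02 against 4.74 to 6.00 (gap 0.705). Neither rat stood apart in library total, in miR-499-5p, in the share of miR-133b-3p or in miR-1b reads per miR-133 read.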

How the results depend on the processing

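The log2 fold changes of the 4 retained members were negative under 10 other settings (scaling, filter, tool, unrounded or down-sampled counts) and with each rat left out. Under the 10 settings they ranged from -2.01 to -1.92 for miR-133a-3p, from -2.32 to -1.60 for miR-133b-3p, from -1.96 to -1.74 for miR-1b and from -0.28 to -0.21 for miR-499-5p. Of these, the filterByExpr filter was added after seeing the data. With each rat left out they ranged from -2.82 to -1.69, -2.62 to -1.42, -3.07 to -1.44 and -0.28 to -0.17, and the summed families from -2.68 to -1.58 (miR-133) and from -2.92 to -1.40 (miR-1 and miR-206). The number of miRNAs with an adjusted p under 0.05, 0 by the edgeR quasi-likelihood test, was 1 in DESeq2's Wald test, which had replaced a count of ethanol rat 16, and 0 to 3 with each rat left out. The number with an unadjusted p under 0.05, 17, was 5 to 24 with each rat left out. It was over 1.5 times smaller without vehicle rat 20 (5), vehicle rat 9 (9), ethanol rat 4 (10) or ethanol rat 8 (11), and highest without vehicle rat 19 (24); the cause was not tested. No paired analysis was possible because the groups share no replicate numbers. Rows under 1.57 CPM could not be told from absence in the shallowest library.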

Other observations

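The other miRNA that varied as much, miR-10b-5p, was high in different rats. It was 153, 169 and 286 CPM in ethanol rats 3, 4 and 24 and between 5.94 and 41.8 CPM in the other 9 libraries, with 41.8 CPM in ethanol rat 16. Its distance from the miR-133a-3p profile, 2.69, was the largest among the 419 miRNAs. In RefSeq's gene table the precursor Mir3571 spans Mir1, Mir3582 spans Mir133a1 and Mir3546 spans Mir208a. The miRNAs listed as miR-3571 and miR-133c had 0 reads in all 12 libraries. By contrast, miR-3546 was among the retained miRNAs, at a distance of 1.77 from the miR-133a-3p profile.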
